A study of Drosophila melanogaster with 24 samples.

Results

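A pair of replicate lines of Drosophila melanogaster were selected in the same direction, for high locomotor reactivity, the activity of a fly just after a mechanical disturbance. Whole-body transcript abundance in High line 1 was compared here with that in High line 2. The comparison used the 8 arrays of the High (H) group, 4 for each line, out of 24 arrays in all. The other 16 arrays came from 2 Low (L) lines, selected for low reactivity, and 2 unselected Control (C) lines. From each line, 2 female and 2 male samples of virgin flies were taken, each a pool of 12 flies aged 3 to 7 days, at generation 25. All 6 lines descended from 1 base population of wild-derived isofemale lines, and a starting pair of bottles was each divided among the H, L and C groups. The sources used here do not say whether a line's number marks its bottle. No mutation, transgene or drug was used in any group.

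Replicate lines under artificial selection share the trait that is selected, while the rest of each genome is free to follow its own course, since a line is bred every generation from a limited number of parents. Transcripts that differ between such lines can therefore mark alleles that came to high frequency in 1 line only, whether or not they act on the trait. Each High line is a single population, so the samples of a line repeat the measurement of that line and not the act of selection. The p-values below rest on the spread between pools of flies of the same line. In the fit with sex as a covariate, that spread also holds any unequal line difference between the sexes. Selection, chance changes in allele frequency and the starting bottle cannot be told apart as sources of a difference between 2 lines. The study also proposed that sequence differences under the probes could lower the Signal of selected lines, and that was not tested here.

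Abundance is given as Signal, the brightness of a probe set (a group of short probes for 1 transcript) scaled on each array by the authors. The median Signal over probe sets was 98.0 to 116.8 on the 4 High female arrays and 145.1 to 152.6 on the 4 High male arrays. Arrays of the same line and sex correlated at 0.969 to 0.982 across the log2(Signal) of 11439 probe sets. The correlation between the lines was 0.957 to 0.966 in females and 0.969 to 0.975 in males. Transcripts limited to 1 sex followed the labels in both lines, since the summed Signal of 7 testis genes was 51438 to 56586 in the males and 159 to 302 in the females, and that of the 3 yolk protein genes was 48918 to 63894 in the females and 111 to 299 in the males. In whole flies, fewer cells of a type and less RNA per cell cannot be told apart. Of the marker genes listed for 8 tissues, 29 could be tested and 0 differed between the High lines in limma at an adjusted p under 0.05. That fit took both sexes together, and most of these markers had very low Signals in 1 sex. The 0 therefore does not show that the lines had equal amounts of these tissues. Within a sex, the only call was 1 of 5 accessory gland genes in females, where their Signals were very low. The females of a line were unlike each other in the egg shell genes, whose summed Signal ran from 7622 to 37327 in High line 1 and from 16639 to 42076 in High line 2, so that the lines overlapped.

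Transcript abundance differed between the High lines for 76 of the 11439 probe sets tested, which was 0.664% of them (limma on log2(Signal), sex as a covariate, Benjamini-Hochberg adjusted p under 0.05). Of these, 48 were higher in High line 1 (0.42%) and 28 were higher in High line 2 (0.245%). An adjusted p under 0.001 was reached by 3 probe sets (0.0262%), those of Cyp12d1-d, Cyp12a4 and PMCA. With any 1 array left out no probe set reached it, and the adjusted p of these 3 was then at most 0.00825. The differences ranged from 1.49-fold to 10.9-fold with a median of 2.24-fold, and 54 of the 76 were at least 2-fold. For all 76, the 2 samples of one line lay above the 2 samples of the other in both sexes, as they did for 14.2% of all probe sets tested. All 4 arrays of one line lay above all 4 of the other, whatever the sex, for 61 of the 76, against 3.86% of all probe sets. The calls were made on these same arrays, which favours such separation, so these shares are a description only. An unadjusted p under 0.05 was seen for 1661 probe sets, against 572 given by chance. The typical probe set differed little, with a median absolute log2 difference of 0.15.

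The number of calls differed widely between fits. Leaving out any 1 of the 8 arrays left between 11 and 42 calls. When the same difference was fitted with all 24 arrays, which share 1 estimate of the spread, 613 probe sets passed (5.36%), 75 of the 76 among them. The exception was CG34227, a computed gene model, with an adjusted p of 0.0600 in that fit. When probe sets had to reach a median Signal of 75 in each sex of the High arrays, a setting chosen after seeing the data, 9312 were tested and 255 passed, with 73 of the 76 among them. The 76 probe sets held 64 genes, 40 of them higher in High line 1 and 24 higher in High line 2, while 4 probe sets named several genes and 8 had no gene name here.

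**Figure D1:**
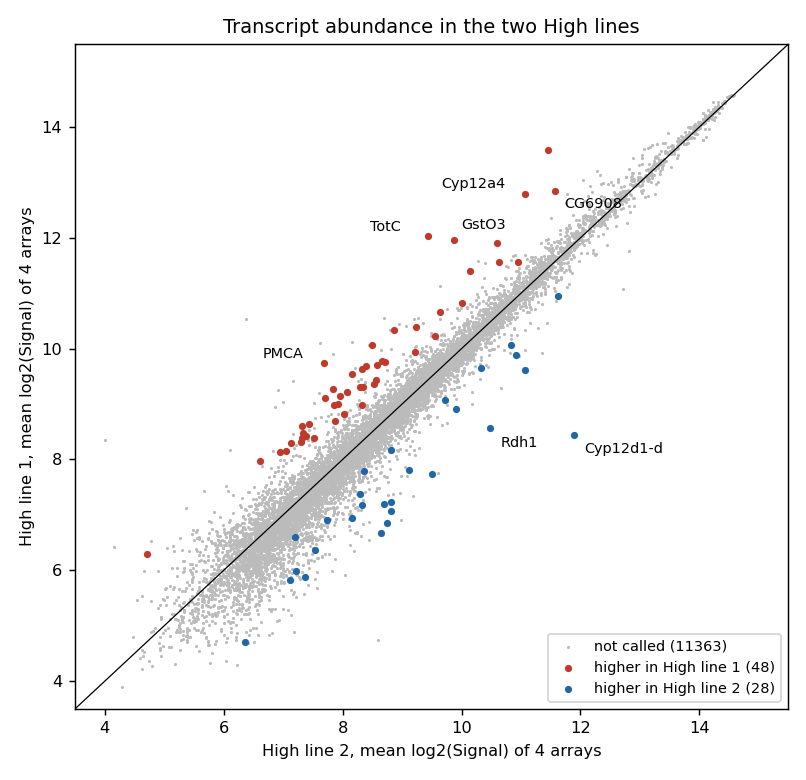
Mean log2(Signal) of the 4 arrays of High line 1 (vertical axis) against that of the 4 arrays of High line 2 (horizontal axis) for the 11439 probe sets tested, with the 48 called higher in line 1 in red, the 28 called higher in line 2 in blue and the line of equal abundance in black. Most probe sets lay close to the line, and Cyp12d1-d lay farthest below it among the calls.

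Enzymes that detoxify foreign compounds gave 2 of the 3 calls past the strict threshold. Cytochrome P450 enzymes add oxygen to small molecules such as insecticides, hormones and plant toxins, and glutathione S transferases couple such molecules to glutathione. The 2 largest differences in the P450 family ran in opposite directions.

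The Signal of Cyp12d1-d, a mitochondrial P450, was 366 and 305 in the females and 354 and 376 in the males of High line 1, against 2987 and 4786 in the females and 3381 and 4276 in the males of High line 2. Every sample of High line 2 was thus far above every sample of High line 1, in females and males alike. The difference was 10.9-fold (log2 difference -3.44, line 1 less line 2, SE 0.17, adjusted p = 0.000541 in limma). Cyp12d1-d has a near-identical neighbour gene, so the probe set may measure both. Cyp12a4, another mitochondrial P450, went the other way, at 7435 and 7606 in the females and 6694 and 6873 in the males of High line 1, against 2348 and 2176 in the females and 1874 and 2190.3 in the males of High line 2. Its replicates lay close together and the lines did not overlap, with a 3.34-fold difference (log2 difference 1.74, SE 0.09, adjusted p = 0.000541). Cyp4d14 was 2.16-fold higher in High line 1 (adjusted p = 0.0374), with 661 and 754 against 249 and 271 in females and 1028 and 1126 against 564 and 693 in males. The calls of Cyp12d1-d and Cyp12a4 held in each of the 8 fits with 1 array left out, and that of Cyp4d14 in none of them (highest adjusted p = 0.117).

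Of 67 P450 genes tested, 2 rose in High line 1 relative to High line 2, 1 fell and 64 did not pass, against 0.644% called among the 9470 genes tested. The median log2 difference of the family was 0.04, and that of all genes was -0.03. An unadjusted p under 0.05 was seen for 37.3% of the family, 19 genes higher and 6 lower in High line 1, and for 14.5% of all genes. In the fit to 24 arrays the P450 genes that passed were 13, or 19.4%, against 5.32% of all genes. Among them was Cyp12a5, a P450 of the same subfamily as Cyp12a4, which was picked out after its values were seen. Its Signal was 517 to 673 in High line 1 and 849.9 to 1036 in High line 2, the opposite order to Cyp12a4 (log2 difference -0.60, SE 0.12, adjusted p = 0.101 with the 8 arrays and 0.0312 with 24).

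The Signal of GstO3, an omega-class glutathione S transferase, was 4298 and 4250.5 in the females and 3054 and 4541 in the males of High line 1, against 627 and 1106 in the females and 1040.5 and 1103 in the males of High line 2. All 4 samples of High line 1 were above all 4 of High line 2, by 4.22-fold (log2 difference 2.08, SE 0.23, adjusted p = 0.0142). GstZ1, a zeta-class member, was 2.15-fold higher in High line 1 (adjusted p = 0.0195), at 207 to 388 against 87.7 to 178. The delta-class genes GstD9 and GstD3 were higher in High line 2. GstD9 was 683 and 856 in the females and 1128 and 1244 in the males of High line 1, against 1204 and 1384 in the females and 2629.7 and 3244 in the males of High line 2, a 2.04-fold difference (adjusted p = 0.0457). GstD3 was 1.59-fold higher in High line 2 (adjusted p = 0.0452), at 1038 to 1581 against 685 to 914. With any 1 array left out, GstO3 was called in 4 of the 8 fits, GstZ1 in 1, and GstD9 and GstD3 in none (highest adjusted p = 0.149 and 0.152). The lines overlapped across sexes for GstD9, whose level was higher in males, but not within a sex.

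Of 31 glutathione S transferase genes tested, 2 rose in High line 1, 2 fell and 27 did not pass (12.9% called, against 0.644% of all genes), with 32.3% at an unadjusted p under 0.05, against 14.5%. In the fit to 24 arrays 9 passed, or 29.0% against 5.32%, 4 of them higher in High line 1 and 5 higher in High line 2. GstD2 and GstD10, picked out after their values were seen, were among the 5, but the second male sample of High line 2 stood above the rest in both. It had 1350.0 for GstD2, where the other samples of that line had 322 to 479.5. For GstD10 it had 413 against 101 to 154. GstD1, the most abundant member of the delta class here, ran the other way, at 11781 to 13857 in High line 1 and 8043 to 10709 in High line 2 (adjusted p = 0.104 with the 8 arrays and 0.00392 with 24). The delta genes have similar sequences, and binding of one transcript to the probes of another was not tested. Mgstl, a microsomal glutathione S transferase outside the list, was 2.20-fold higher in High line 1 by 1 probe set (adjusted p = 0.00847), at 334 to 400.0 against 153 to 172. Its brighter probe set gave a log2 difference of 0.50 (SE 0.09, adjusted p = 0.0717).

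The next genes described were named for the size of their difference or as members of a list, and were not tested as a group. Calcium enters a cell through voltage-gated channels, is pumped out again by the plasma membrane calcium ATPase, and acts in between on enzymes such as protein kinase C. Peptides and glutamate carry signals between nerve cells and are received or cleared by dedicated membrane proteins.

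The Signal of PMCA, the plasma membrane calcium ATPase on chromosome 4, was 842 and 948 in the females and 824 and 802 in the males of High line 1, against 230.2 and 192 in the females and 214 and 185 in the males of High line 2. The lines were clearly apart and the sexes alike, with a 4.16-fold difference (log2 difference 2.06, SE 0.10, adjusted p = 0.000541). The difference belonged to 1 of the 3 probe sets of the gene, and that the dimmest. The other two, with mean Signals of 2417 and 3335, gave log2 differences of -0.03 (SE 0.20) and 0.11 (SE 0.09). Ca-beta, a regulatory subunit of voltage-gated calcium channels, was 2.29-fold higher in High line 1 (adjusted p = 0.0232), at 224 and 277 in the females and 342 and 302 in the males of High line 1, while the highest of the 4 samples of High line 2 had 164. A second, dimmer probe set of Ca-beta gave -0.16 (SE 0.22). Ca-beta was the 1 call among 27 voltage-gated channel genes and modulators tested (3.70%, against 0.644% of all genes), with 18.5% at an unadjusted p under 0.05, against 14.5%. Pkc98E, a protein kinase C, was 742 to 887 in the 4 samples of High line 1 and 282 to 421 in those of High line 2, a 2.42-fold difference (adjusted p = 0.0133).

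TkR99D, a receptor for tachykinin neuropeptides, had a Signal of 424 and 584 in the females and 614 and 614 in the males of High line 1, against 233 and 245 in the females and 199 and 167 in the males of High line 2. It was 2.65-fold higher in High line 1 (log2 difference 1.40, SE 0.18, adjusted p = 0.0232), and was the 1 call among 31 neuropeptide and receptor genes tested (3.23%, against 0.644% of all genes). An unadjusted p under 0.05 was seen for 6.45% of that list, below the 14.5% of all genes. Eaat2, a transporter of excitatory amino acids, was 1327 and 1514 against 575 and 641 in females and 1887 and 1866 against 1091 and 982 in males, a 2.06-fold difference (adjusted p = 0.0142). With any 1 array left out, PMCA was called in each of the 8 fits, Pkc98E in 2, TkR99D in 1 and Ca-beta in none (highest adjusted p = 0.0939).

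The clock gene Clk was the single call among 18 circadian genes tested and among 42 genes with known effects on locomotion, a list drawn up by the study. These were 5.56% and 2.38% of the lists, against 0.644% of all genes, and 22.2% and 9.52% had an unadjusted p under 0.05, against 14.5%. Clk encodes the transcription factor that, with its partner cycle, switches on the genes period and timeless each day. The flies were collected at the time of day of the behavioral assays, a window of several hours. The hour of each sample is not given, and its part in these values was not tested. The Signal of Clk was 440.0 and 441 in the females and 1073 and 1132 in the males of High line 1, against 234 and 272 in the females and 569.9 and 552 in the males of High line 2. The lines were apart within each sex, while males of High line 2 were above females of High line 1. The difference was 1.85-fold (log2 difference 0.89, SE 0.09, adjusted p = 0.0120), and it passed in 3 of the 8 fits with 1 array left out (highest adjusted p = 0.0575). In the fit to 24 arrays, 4 of the 18 clock genes passed (22.2%, against 5.32% of all genes), 2 in each direction, and 4.76% of the known locomotor genes did. Of these, cry, the blue light receptor of the clock, was 1394 to 1930.5 in High line 1 and 924 to 1267 in High line 2. Pdp1, a regulator of Clk transcription, was 302 to 356 and 436 to 634. Both were picked out after their values were seen, and their adjusted p in the 8 arrays was 0.0786 and 0.0694.

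The largest difference among the calls higher in High line 1, and the largest SE among the called genes named here, was that of TotC, a Turandot protein secreted into the blood under stress and infection. Its Signal was 2807 and 3059.6 in the females and 5484 and 6572 in the males of High line 1, against 608 and 1132 in the females and 391 and 856 in the males of High line 2. Every sample of High line 1 was above every sample of High line 2, and the difference was 6.05-fold (log2 difference 2.60, SE 0.40, adjusted p = 0.0475). With any 1 array left out, the adjusted p of TotC was past 0.05, at most 0.166. TotC was the 1 call among 51 genes of immune recognition and signalling, a list that includes the Turandot genes (1.96%, against 0.644% of all genes). Of 16 antimicrobial peptide genes 0 passed, with 4 at an unadjusted p under 0.05, all higher in High line 1. In the fit to 24 arrays 1 peptide gene passed (6.25%), as did 7.84% of the immune list, against 5.32% of all genes. At an unadjusted p under 0.05 were 15.7% of the immune list and 25.0% of the peptide genes, against 14.5% of all genes. Lysosomal alpha-mannosidases, which trim sugars from glycoproteins, were represented by the neighbouring genes LManI and LManII. LManI was 364 to 468 in High line 1 against 141 to 228 in High line 2 (2.31-fold, adjusted p = 0.0120), and LManII was 2448 to 3495 against 1495 to 1756 (1.90-fold, adjusted p = 0.0174). Dip-C, a dipeptidase, was 729 to 1002 against 330.5 to 460.0 (2.19-fold, adjusted p = 0.0120). Eaat2, Mgstl, Dip-C and the mannosidases were picked out after their values were seen.

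Other genes with large differences higher in High line 1 had no role that can be given here, apart from drd (drop dead), whose loss leaves adult flies short-lived. Its Signal was 239 to 270.3 in High line 1 and 70.6 to 124 in High line 2 (2.57-fold, adjusted p = 0.0232). CG14567 was 951 to 1233 against 329 to 405 (2.97-fold, adjusted p = 0.00816) and was called in each of the 8 fits with 1 array left out. The computed gene models CG14153, CG31809 and CG9377 were 2.69-fold, 2.63-fold and 2.48-fold higher in High line 1 (adjusted p = 0.0120, 0.0457 and 0.0354). CG6908 was abundant, with 5867 to 8489 in High line 1 and 2578 to 3588 in High line 2 (2.41-fold, adjusted p = 0.0168).

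Among the named genes higher in High line 2, the second in size after Cyp12d1-d was Rdh1, named as a retinol dehydrogenase. Its Signal was 410.4 and 514 in the females and 274 and 349.7 in the males of High line 1, against 1253 and 1713 in the females and 1375 and 1428 in the males of High line 2, a 3.80-fold difference (log2 difference -1.93, SE 0.17, adjusted p = 0.00884). CG3097 was 104.5 to 131 in High line 1 and 325 to 547 in High line 2 (3.73-fold, adjusted p = 0.00643), and CG31205 was 685 to 846 and 1993 to 2654 (2.75-fold, adjusted p = 0.00643). Neither line reached the other's range in any of these genes. CG3097 and CG31205 were called in each of the 8 fits with 1 array left out, and Rdh1 in 7.

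Cbp80, the large subunit of the nuclear complex that binds the cap of messenger RNA, had a Signal of 273 and 215 in the females and 69.5 and 126 in the males of High line 1, against 726 and 799 in the females and 247 and 289 in the males of High line 2 (3.00-fold, adjusted p = 0.0220). Its other probe set, with a mean Signal of 107, gave a log2 difference of 0.09 (SE 0.21). CG17751 and CG7800 were 3.36-fold and 2.82-fold higher in High line 2 (adjusted p = 0.0120 and 0.0220). Kebab, CG4259, Nepl20, CG15649 and CG1529 were 2.26-fold to 2.81-fold higher. Nepl20, a neprilysin-like protein of a family of peptidases, was dim, at 49.7 to 72.8 in High line 1 and 123 to 178 in High line 2 (adjusted p = 0.0265). Smaller differences in the same direction included schlank, a ceramide synthase, at 1.57-fold (adjusted p = 0.0406), picked out after its values were seen, and ninaG, an enzyme in the making of the visual chromophore, at 1.51-fold (adjusted p = 0.0457). The Signal of ninaG was 90.2 to 107 in High line 1 and 138 to 156 in High line 2. Among 21 phototransduction genes tested, ninaG was the 1 call (4.76%, against 0.644% of all genes). At an unadjusted p under 0.05 were 23.8% of that list, against 14.5% of all genes. Of these, 4 were higher in High line 1, opposite to ninaG, and 1 was higher in High line 2.

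**Figure D2:**
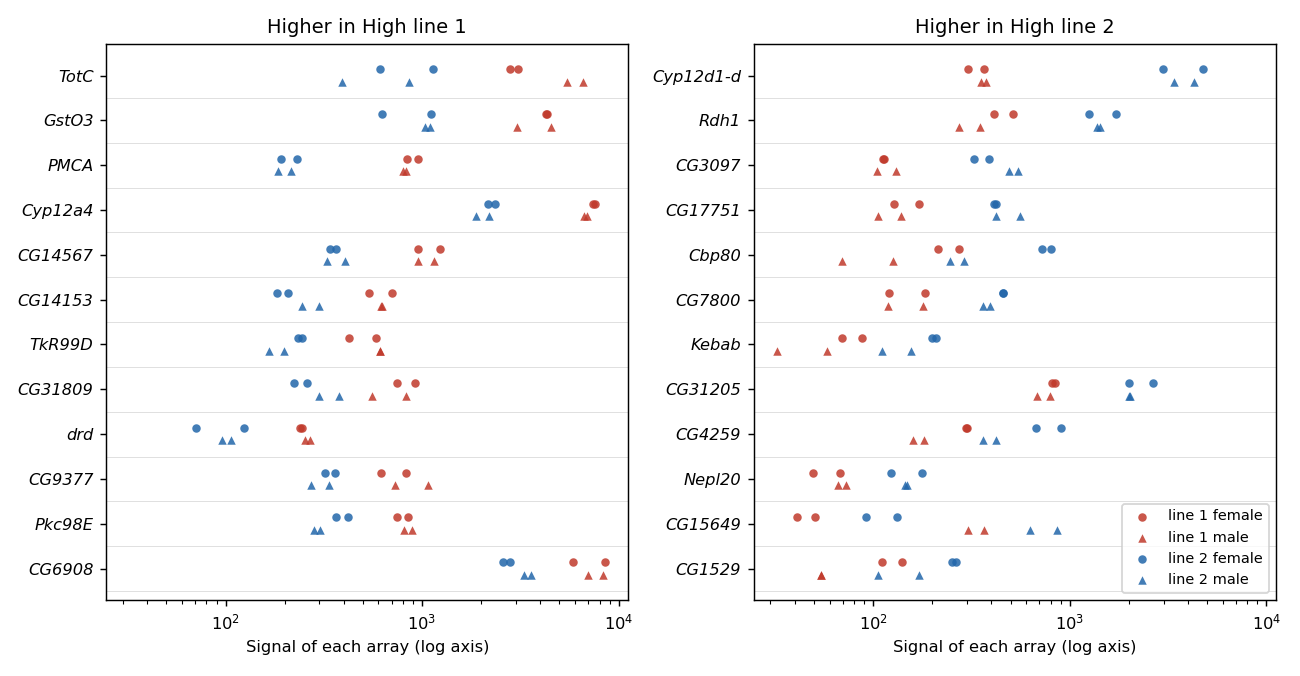
Signal of each of the 8 High arrays (horizontal, log axis) for the 12 named genes with the largest log2 difference in each direction, with circles for females, triangles for males, red for High line 1 and blue for High line 2. Within each sex the 2 red and 2 blue points of a gene do not overlap, and the points of CG15649 and Cbp80 are also set apart by sex.

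Of the 31 named genes with a called line difference, 6 were called in each of the 8 fits with 1 array left out, 1 in 7 of them and 10 in none. The 6 were PMCA, Cyp12a4, CG14567, Cyp12d1-d, CG3097 and CG31205. The 10 were TotC, Kebab, Nepl20, CG15649, CG1529, Cyp4d14, GstD3, GstD9, ninaG and Ca-beta. The direction of the difference was the same for all 31 in those fits and in every other setting in which the probe set was tested. The lines did not overlap within either sex for any of them. Leaving out an array could therefore not reverse a direction, and nothing is read from this.

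The line means were then set beside those of the 2 Low and 2 Control lines, to see which High line departed. Each mean was over 4 arrays and both sexes. For 20 of the 76 calls (26.3%) the High lines lay on opposite sides of the range of the other 4 lines, as they did for 5.32% of all probe sets tested. High line 1 alone was outside that range for 24 calls (31.6%, against 21.2% of all probe sets) and High line 2 alone for 19 (25.0%, against 17.1%). Both were outside it on the same side for 7 (9.21%, against 16.4%) and neither was for 6 (7.89%, against 40.0%). Among the 48 calls higher in High line 1, line 1 was above the range for 28 (58.3%, against 16.5% of all probe sets). Line 2 was below it for 30 of them (62.5%, against 19.6%). Among the 28 higher in High line 2, line 1 was below the range for 19 (67.9%, against 26.4%). Line 2 was above it for 13 of them (46.4%, against 19.2%). The calls were chosen for a difference between the High lines, so their shares are a description and were not tested.

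Cyp12a4 was of the kind with both High lines at the edges, since its mean log2(Signal) was 12.80 in High line 1 and 11.06 in High line 2, and 11.34 to 12.38 in the other lines. GstO3 and drd were alike, with 11.96 and 9.88 against 10.82 to 11.78 for GstO3 and 7.97 and 6.61 against 7.09 to 7.84 for drd. For PMCA it was High line 2 that stood apart, at 7.68, with High line 1 at 9.74 inside the range of 8.76 to 9.75. Clk was the reverse, with 9.44 in High line 1, and 8.56 in High line 2 within the range of 8.39 to 8.75. For CG6908 both High lines were above all others, at 12.84 and 11.57 against 8.94 to 11.07. Cyp12d1-d varied widely among all the lines, at 8.45 and 11.89 in High lines 1 and 2, 11.13 and 7.32 in Low lines 1 and 2, and 11.17 and 10.02 in Control lines 1 and 2.

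**Figure D3:**
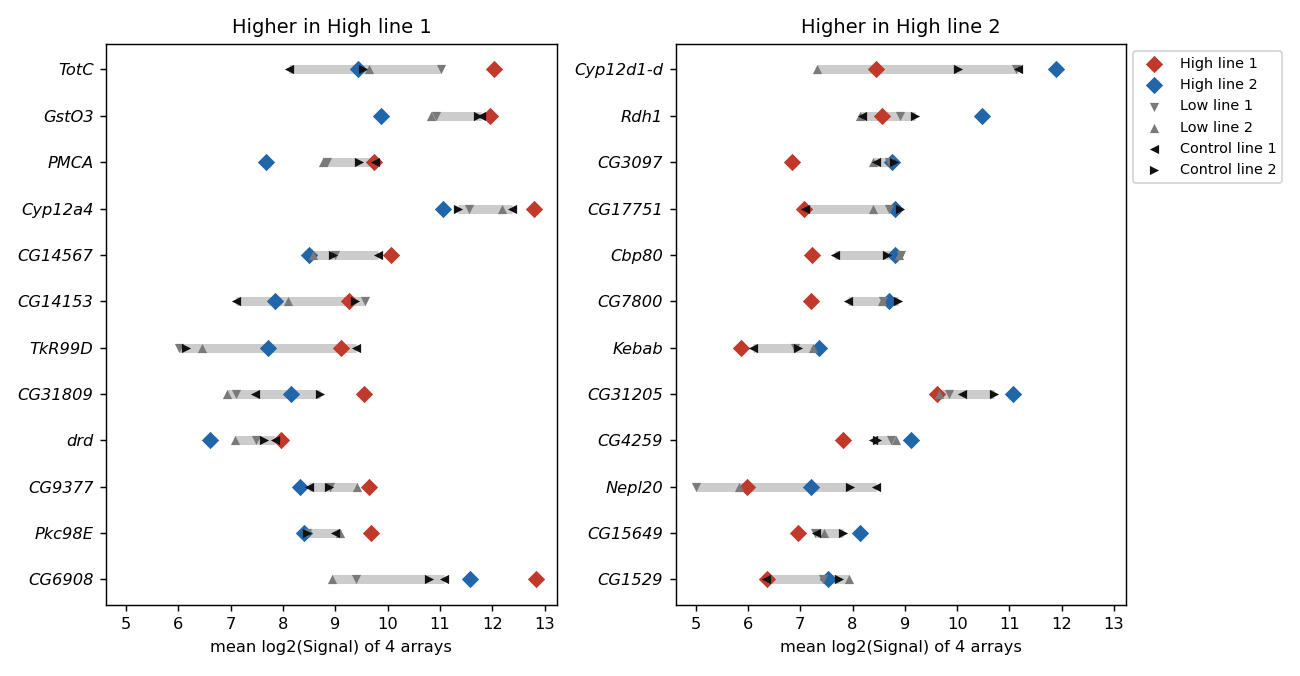
Mean log2(Signal) of 4 arrays in each of the 6 lines (horizontal axis) for the same 24 genes, with diamonds for High line 1 (red) and High line 2 (blue), triangles for the Low and Control lines, and a grey bar over the range of those 4 lines. Cyp12a4 has its High lines on either side of the bar, PMCA has High line 2 below it, and TkR99D has both High lines inside it.

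The other pairs of lines of a group differed as well. The Control lines differed from each other for 151 probe sets (1.32%) and the Low lines for 111 (0.97%) in the same fit. Of the 76 High calls, 54 had the same sign between Control lines 1 and 2 (71.1%, against 52.6% of all probe sets tested), and 14 of them were called there, 12 in the same direction. Between the Low lines, 39 had the same sign (51.3%, against 53.7%) and 5 were called, 2 in the same direction. These signs rest on the line numbers, and the sources used here do not say that equal numbers match across groups. With the numbers of a group exchanged, the signs and the tests that follow would change. The difference of the High lines was tested against that of the Control lines in 1 fit to all 24 arrays, and 504 probe sets passed (4.41%), 307 with the High difference above and 197 with it below. Against the Low lines 410 passed (3.58%), 214 above and 196 below. These included 43 and 51 of the 76 High calls, which were chosen on the same High difference and so had to be frequent among them.

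For Cyp12d1-d, High line 1 was below High line 2 by a log2 difference of -3.44, while Low line 1 was above Low line 2 by 3.81. The sizes were near each other, and the opposite direction rests on how the lines were numbered. The High difference less the Low difference was -7.25 (adjusted p = 2.23e-08), and less the Control difference it was -4.59 (adjusted p = 5.39e-06). TkR99D was higher in line 1 than in line 2 of the High group by 1.40 and of the Control group by 3.24, and lower by -0.43 in the Low group. Its High difference was below the Control difference by -1.84 (adjusted p = 0.00461) and above the Low difference by 1.83 (adjusted p = 0.00492).

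The line difference was then taken within each sex, in 1 fit to the 4 means of line and sex, which share an estimate of the spread. In females 189 probe sets differed between the lines (1.65%), 68 higher in High line 1 and 121 higher in High line 2. Among males 10 did (0.0874%), 3 and 7. Fits to the arrays of 1 sex alone gave the reverse order, with 1 probe set in females and 49 in males, so that no order of the sexes can be read from these counts. For 102 of the 189, both lines had a mean female Signal under 75, the minimum used for the median over all arrays. When a median of 75 was required in each sex, a setting chosen after seeing the data, 100 probe sets passed in females and 67 in males out of 9312. The 76 calls had a median absolute log2 difference of 1.15 in females and 1.16 in males, and all 76 had the same direction in both, against 55.9% of all probe sets tested. A fit with sex as a covariate favours differences that are alike in the sexes, so nothing is read from this likeness.

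A line difference that was unequal between the sexes was called for 8 probe sets (0.0699%), from 1065 at an unadjusted p under 0.05. In 7 of the 8 all 4 female samples had a Signal under 75. One such gene was boil, at 50.9 and 40.8 in the females of High line 1 and 5.0 and 4.3 in those of High line 2, with 524 to 664 in the males of both lines. The exception was CG14691. Its Signal was 3.3 and 3.2 in the females of High line 1 and 288 and 275 in those of High line 2, against 236 and 204 in the males of High line 1 and 519.5 and 533 in those of High line 2. The Signal was thus near 0 in the females of High line 1 and well above it in the other 6 samples. In males the log2 difference was -1.26 (SE 0.13). The fit gave -6.43 in females and a difference between the sexes of -5.17 (adjusted p = 0.000715), but these are not measured sizes, since Signals near 3.2 were not shown to be above background. With 50 added to each Signal before the log2, the difference between the sexes was -1.54 (adjusted p = 0.0337). A second probe set of CG14691 gave 14.4 and 2.3 in the females of High line 1 and 79.4 and 77.0 in those of High line 2. The interaction of CG14691 passed with any 1 array left out (highest adjusted p = 0.0214). It was the 1 call that remained when a median of 75 was required in each sex or when no filter was used. Over both sexes, the mean log2(Signal) of CG14691 was 4.74 and 8.59 in High lines 1 and 2. It was 5.06 and 7.82 in Control lines 1 and 2 and 5.47 and 4.81 in Low lines 1 and 2, so other lines were low as well. In limma with 24 arrays, and by the line numbers, the High difference less the Control difference was -1.09 (adjusted p = 0.179). Less the Low difference it was -4.51 (adjusted p = 2.7e-05).

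**Figure D4:**
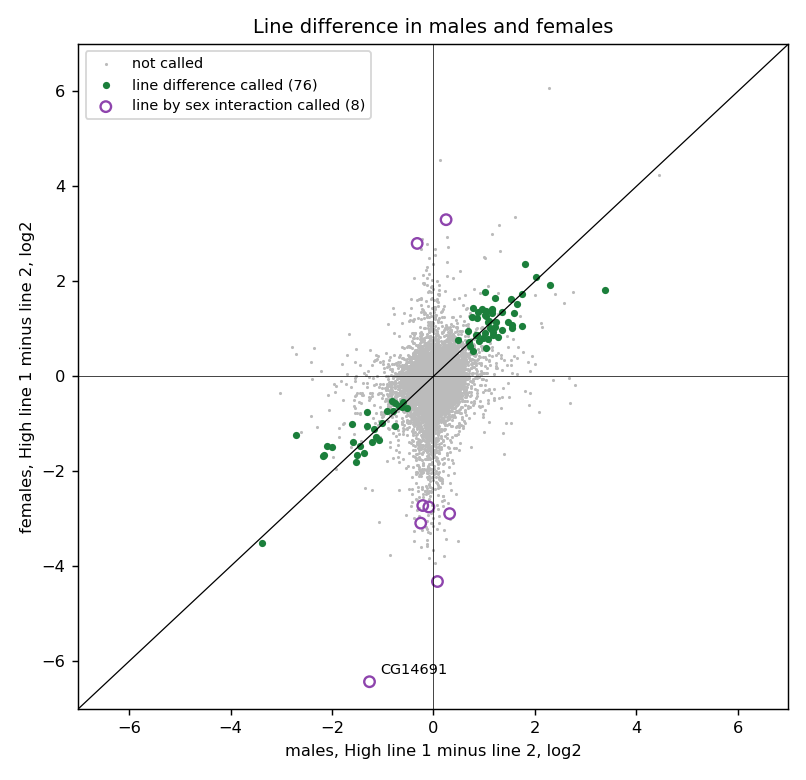
Log2 difference of High line 1 and High line 2 in females (vertical axis) against that in males (horizontal axis) for the 11439 probe sets tested, with the 76 called line differences in green and the 8 called interactions ringed in purple. The green points follow the line of equal difference, and CG14691 is plotted at -6.43 in females, a value that rests on Signals near 0, and -1.26 in males.

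The remaining gene lists were described by their counts, each list being set beside the 0.644% of all genes called with the 8 arrays, the 14.5% at an unadjusted p under 0.05 and the 5.32% called with 24 arrays. UDP-glycosyltransferases, which attach sugars to foreign and endogenous compounds, gave 0 calls among 24 genes, with 37.5% at an unadjusted p under 0.05 and 12.5% called with 24 arrays. Digestive enzymes gave 0 calls among 43, with 16 at an unadjusted p under 0.05, 12 of them higher in High line 1. The maltases Mal-A3 and Mal-A4, picked out after their values were seen, were 1156 to 1524 and 1193 to 1696 in High line 1, against 284 to 868 and 329 to 1303 in High line 2. The upper end in High line 2 was in both the second male sample, the sample that was also high for GstD2 and GstD10. Odorant-binding proteins gave 0 calls among 30, with 8 higher and 1 lower in High line 1 at an unadjusted p under 0.05, and lipid genes gave 0 among 50, with 9 higher and 4 lower.

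The next families gave 0 calls with the 8 arrays. Some had few genes at an unadjusted p under 0.05, and some were near the share of all genes. No heat shock protein of 16 and no cytosolic ribosomal protein of 35 reached even an unadjusted p under 0.05 in limma, and none was called with 24 arrays. Glycolytic enzymes had 1 of 21 at that level, sarcomere genes of muscle 1 of 32, and genes of biogenic amine synthesis and reception 1 of 14. In the mitochondrial respiratory chain 7 of 74 were at that level, all 7 higher in High line 2. DNA replication genes and germ plasm genes gave 0 calls among 39 and 32, with 6 and 5 at an unadjusted p under 0.05 (15.4% and 15.6%), all higher in High line 2, and medians of -0.46 and -0.30 in females against -0.03 and 0.01 in males. Spermatogenesis and accessory gland genes, of tissues that females lack, had similar medians in females, at -0.48 and -0.41, against -0.05 and -0.22 in males. They gave 0 calls among 44 and 44, with 6 and 5 at an unadjusted p under 0.05, again all higher in High line 2. With 24 arrays the shares that passed were 2.56% of DNA replication, 3.12% of germ plasm, 6.82% of spermatogenesis and 0% of accessory gland genes. The egg shell genes, which differed between female samples of a line as given above, had a median of -0.50 in females. Their part in these values was not tested. Among the 10 candidate genes whose P-element mutants the study examined, 0 were called with 8 arrays and 2 with 24 (20%, against 5.32% of all genes). These were trn, lower in High line 1, and cdi, higher in it. In the study, the mutants of trn and cdi did not differ significantly from the control strain in locomotor reactivity.

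**Figure D5:**
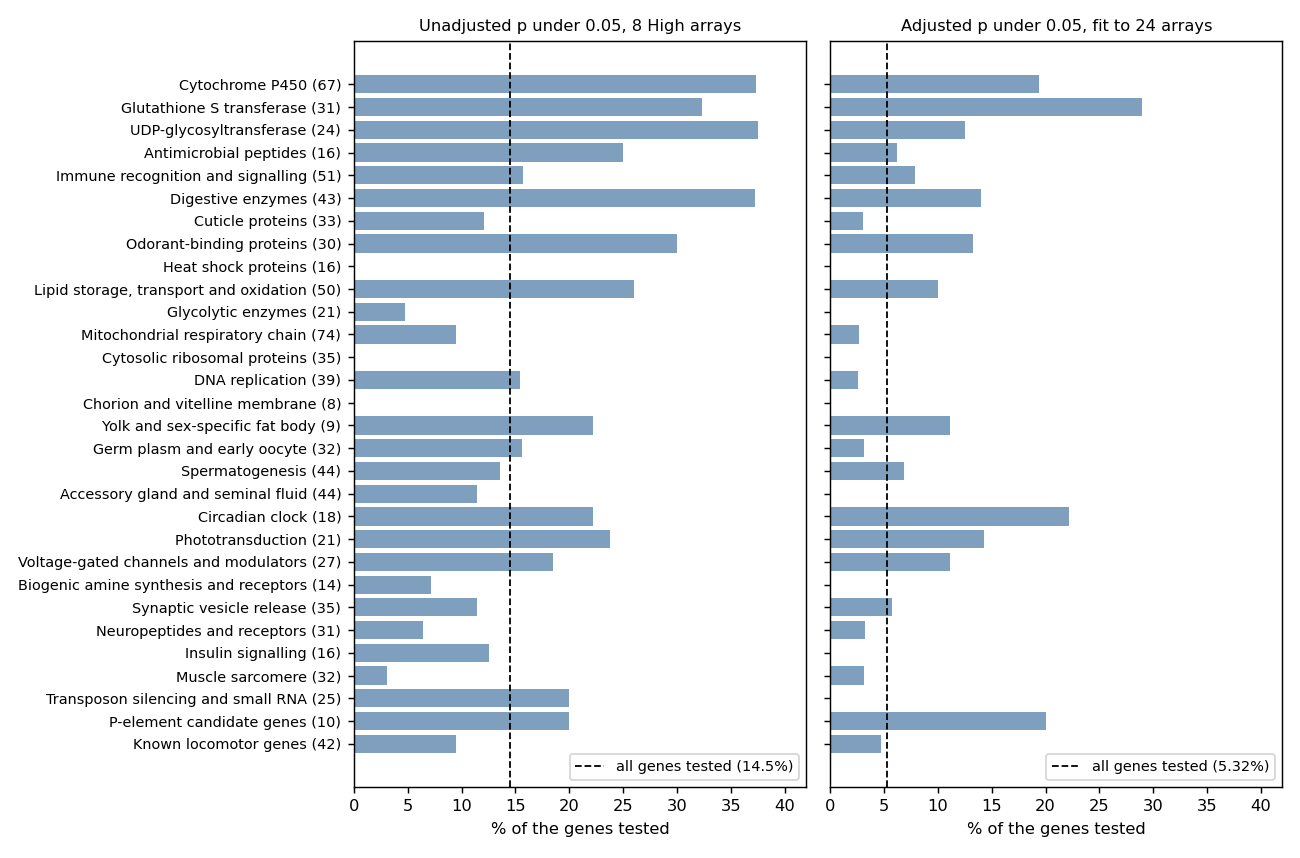
Share of the genes tested in each list (number in brackets) with an unadjusted p under 0.05 in the 8 High arrays (left) and with an adjusted p under 0.05 in the fit to 24 arrays (right), with dashed lines for all genes tested at 14.5% and 5.32%. P450, glutathione S transferase, UDP-glycosyltransferase and digestive genes have long bars on the left, and heat shock and ribosomal genes have none.

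The called genes were spread over the chromosome arms, by their places in the Release 6 annotation of RefSeq. Taking the brightest probe set of each gene, 14 of 1485 genes were called on X (0.943%), 14 of 1790 on 2L (0.782%), 6 of 1939 on 2R (0.309%), 8 of 1822 on 3L (0.439%), 19 of 2346 on 3R (0.81%) and 0 of 59 on chromosome 4, where PMCA counts by its brightest probe set, against 0.646% of all genes placed. In the fit to 24 arrays the shares ran from 4.39% on 3L to 11.9% on chromosome 4, where 7 genes passed. Of the 61 called genes, 6 had the next gene tested on either side also called (9.84%, against 1.29% of all genes placed). They formed 3 pairs, LManI with LManII on 2L, and schlank with Josd and CG1572 with CG11699 on X, and both genes of each pair differed in the same direction. Josd, a deubiquitinating enzyme of the Josephin family, and schlank were higher in High line 2, and the other pairs were higher in High line 1. GstD9 and GstD3 lay 2 tested genes apart on 3R, and Kebab and CG4259 as far apart on 2L, again with 1 direction in each pair, and Arpc1 and CG33307, 3 apart on 2L, were both higher in High line 1. In contrast vanin-like, 4 tested genes from schlank on X, was higher in High line 1 while schlank was higher in High line 2. With 24 arrays, 98 of 502 called genes had a called neighbour (19.5%, against 10.3% of all genes placed), and 32 of the 53 neighbouring pairs shared a direction.

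Large differences were not always called. At least 2-fold separated the lines for 341 probe sets, and 287 of these did not pass. CG18179 had a Signal of 244 and 182 in the females and 897 and 286 in the males of High line 1, against 14.9 and 8.3 in the females and 7.8 and 69.2 in the males of High line 2, with no overlap and an adjusted p of 0.0510. CG15772 was 859.8 and 868 in the females and 544 and 544 in the males of High line 1, against 88.1 and 102 in the females and 246 and 198 in the males of High line 2 (adjusted p = 0.0548). CG8093, a gene of the lipid list, was 609 to 1419 in High line 1 and 139 to 351 in High line 2 (adjusted p = 0.0624). These 3 were picked out after their values were seen, and each had its 4 High line 1 samples above its 4 High line 2 samples.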

How the data were processed

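RNA of whole flies was hybridised by the authors to Affymetrix Drosophila 2.0 arrays, 1 array for each of the 24 samples. The deposited values are Signal intensity on a linear scale, computed by the authors with MAS5 from probes that match the transcript and their mismatched partners, with each array scaled, so a change in the total amount of RNA per fly is not seen. No genome build is named for them. Of 18769 probe sets, 13647 had 1 gene symbol, 402 several and 4720 none here, by the platform annotation with symbols updated through RefSeq (Release 6 plus ISO1 MT), which also gave chromosome arms and gene order.

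Kept for testing were probe sets whose Signal had a median over the 24 arrays of 75 or more. log2(Signal) was fitted with limma 3.58.1 (R 4.3.3) on line and sex over the 8 High arrays, and on the 4 or 12 means of line and sex for the sexes and for differences between groups. Calls were made at a Benjamini-Hochberg adjusted p under 0.05 over all probe sets tested. Lists, arms and neighbours used the brightest probe set of each gene. The genes named were the 12 with the largest difference in each direction, up to 4 called members of each of 31 lists, the 6 with the smallest interaction p, marker genes, and called genes of the lists of the study. Members, lists and rules were chosen with earlier results of these data known. The fit on line and sex over the 8 High arrays was run on simulated data with independent noise, and the other fits were not. Other filters, scales, normalizations, fits and arrays left out were tried as alternatives. The number of arrays limits the precision.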

Additional observations from a re-analysis of the deposited data

Results flagged for a closer look

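A line difference that was unequal between the sexes passed the test for 8 genes in the High group. The log2 difference in females less that in males was -5.17 for CG14691 (adjusted p = 0.000715), -3.21 for nsr (0.0191), -2.84 for CG12784 (0.0243), -2.51 for Actn3 (0.0286), -2.66 for CG34204 (0.0409) and -4.40 for CG13725 (0.0436). It was 3.05 for boil (0.0243) and 3.12 for CG4669 (0.0436). All but CG14691 had female Signals under 75 on all 4 High arrays, and CG14691 had Signals of 3.3 and 3.2 in the females of High line 1. Whether these are background was not tested, so the values are not measured sizes.

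The difference between the High lines departed from that between the Control lines for 504 probe sets (4.41% of those tested) and from that between the Low lines for 410 (3.58%). Both comparisons use the same High arrays. Both also take line 1 less line 2 in each group, and the sources used here do not say that equal numbers match across groups. Of the genes with the largest line differences, 9 passed both tests. The High difference less the Control difference was 2.02 for GstO3 (adjusted p = 0.000513), 1.76 for PMCA (5.3e-05), 0.70 for Cyp12a4 (0.00783) and 1.69 for CG9377 (0.00732). For genes higher in High line 2 it was -4.59 for Cyp12d1-d (5.39e-06), -0.92 for Rdh1 (0.0173), -1.55 for CG3097 (5.3e-05) and -1.22 for CG4259 (0.00665). TkR99D had -1.84 (0.00461), since its Control lines differed more than its High lines. The High difference less the Low difference was 1.97 for GstO3 (0.000463), 1.97 for PMCA (6.6e-06), 2.37 for Cyp12a4 (1.59e-07), 1.83 for TkR99D (0.00492) and 1.83 for CG9377 (0.00472). It was -7.25 for Cyp12d1-d (2.23e-08), -2.69 for Rdh1 (3.17e-06), -2.19 for CG3097 (8.54e-07) and -1.19 for CG4259 (0.00856). Groups here held 2 samples each, too few for a search for single outlying samples.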

How the results depend on the processing

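The count of 76 calls (48 higher in High line 1, 28 in High line 2) stayed within 1.5 times under a minimum median Signal of 50 or 150, a minimum over the High arrays alone, quantile normalization and median centring (71 to 94). It was 17 (8 and 9) with no filter, 254 (158 and 96) on log2(Signal + 50), 656 (316 and 340) in the methods' factorial analysis of linear Signal, 613 (324 and 289) with 24 arrays, 189 (90 and 99) with a line by sex term, 210 (147 and 63) with an intensity trend, 1 (0 and 1) in females only, 49 (30 and 19) in males only, 13 (7 and 6) at an adjusted p under 0.01, and 255 (163 and 92) with a minimum in each sex, chosen after seeing the data. With the replicate number as a block it was 49 (33 and 16), holding 44 of the 76. The sources do not say that these numbers pair samples, and 1 of 6 correlations of replicate differences was over 0.1 (-0.063 to 0.126). With 1 High array left out, the count was 11 to 42 (6 to 27 and 5 to 17), lowest without the first male sample of High line 2. The causes of these shifts were not tested.

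At an adjusted p under 0.001, the 3 calls became 15 on log2(Signal + 50), 55 in the factorial analysis, 65 with 24 arrays, 11 with a trend, 6 with the minimum in each sex and 1 with the line by sex term, and 0 with no filter, with the replicate block, in females only, in males only or with any array left out (0 to 0). The 8 interactions became 1 with no filter or the minimum in each sex, 14 with a minimum of 150, 20 with 24 arrays, 11 with the replicate block and 1 to 112 with an array left out. With no filter, 280 and 223 probe sets separated the High difference from the Control and Low differences, and with the block 464 and 379. With the minimum in each sex, 100 probe sets passed in females and 67 in males. No named gene changed direction, which was largely fixed in advance, since the lines of these genes did not overlap within either sex. Of 459 values 361 kept their call, as did 90 of 248 with an array left out.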
